A study of Mus musculus and Rattus norvegicus with 28 samples.

Results

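The libraries described here were labelled as the RNA of mouse heart muscle cells on postnatal day 7 (P7) and on embryonic day 18.5 (E18.5), after and before the heart takes up the load of life outside the womb. They were chosen by their labels alone, 2 RNA-seq libraries at each age, and make up 4 of the 28 samples of a series that followed cardiomyocytes across birth by RNA, open chromatin and chromatin contacts. Every mouse was a wild-type C57BL/6 animal, males and females alike, and neither age carried a transgene or received a treatment. Left ventricles were taken apart with trypsin, over many hours in the cold, and then with collagenase. The suspension was left on plastic in warm medium with serum so that quickly attaching cells were lost. The methods say that the remainder was used directly or plated for treatment, without naming which for the RNA. No sort on a marker followed, so a library is the RNA of all cells that stayed in suspension. The labels do not say whether hearts were pooled or whether both libraries of an age came from separate litters. The spread between libraries of the same age may therefore be technical. The p values and standard errors below rest only on this spread. It was taken over all 8 mouse RNA libraries in the fit, those of the ages in between included, and not over these 4 alone.

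In the week after birth a mouse cardiomyocyte is known to leave the cell cycle, to trade fetal for adult forms of its contractile proteins, and to turn from glucose and lactate towards fatty acids as fuel. Its sarcomere is built of thick filaments of myosin and thin filaments of actin, tropomyosin and troponin, anchored at the Z-disc, and it contracts when calcium is released from the sarcoplasmic reticulum. The spaces between the muscle cells hold fibroblasts, which lay down collagen and other matrix, endothelial cells, pericytes and macrophages.

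Aligned reads numbered 29.3 and 34.1 M in the E18.5 libraries and 33.3 and 35.9 M in those of P7, as worked out from the deposited coverage. Levels are given in FPKM, fragments per kilobase of transcript scaled to the depth of the library, summed over the transcripts of a gene. Of 55450 annotated genes, 13979 reached an FPKM of 1 in at least 2 of the 8 mouse RNA libraries (those of P1 and P3 included) and were tested on log2(FPKM + 1), a scale that understates the change of genes with low values. A gene was called, and is said below to have risen or fallen, when its P7 and E18.5 levels differed by more than 1 on that log2 scale at an adjusted p under 0.05, in limma's test with Benjamini-Hochberg adjustment over all tested genes. By this rule 3870 genes (27.7%) were called, 2155 (15.4%) higher at P7 and 1715 (12.3%) lower. All 3870 had libraries that did not overlap between the ages, while of all tested genes 45.6% had both P7 libraries above both E18.5 libraries and 32.7% had both below. Among the called genes, 45 rose and 63 fell by more than 4 on the log2 scale. The median difference of all tested genes was 0.14, and the median SE was 0.18.

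Which share of the called genes was higher moved with the scaling. As deposited it was 55.7%, with TPM (each transcript relative to all others, which fixes the total of each library) it was 68.1%, and with median-of-ratios size factors it was 45.5%. The median difference of all tested genes moved by 0.25 with TPM and by -0.15 with size factors. None of the 3870 calls turned into the opposite call under any of 14 alternatives (0 of 3870). Counts of gene groups below are those of the deposited FPKM, and for some groups the counts with TPM, with size factors or without 1 library stand beside them.

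Globin messages were abundant at E18.5 and nearly absent at P7. The 8 tested erythroid genes all fell, and the list summed to 29056 and 35399.9 FPKM at E18.5 and 11.4 and 12.1 FPKM at P7, which was 5.47% and 6.42% of all FPKM at E18.5 and 0.00250% and 0.00271% at P7. Hbb-bs, an adult beta globin, was at 10045 and 12490.5 FPKM at E18.5 and 3.90 and 4.24 FPKM at P7. Hba-a1, an alpha globin, was at 8133 and 10097 FPKM at E18.5 against 2.73 and 3.39 FPKM at P7. Because Hba-a1 and Hba-a2, and likewise Hbb-bs and Hbb-bt, share nearly all of their sequence, the split of reads within each pair is uncertain. Alas2, the enzyme that starts heme synthesis in red cell precursors, was at 33.5 and 42.01 FPKM at E18.5 and 0.0152 and 0.184 FPKM at P7. Slc4a1, the anion exchanger of the red cell membrane, was listed at 0 in both P7 libraries. Fewer cells of a type and less RNA of its genes per cell cannot be told apart in these bulk libraries, here and for every cell type and muscle gene below.

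The most abundant annotated genes at E18.5 were not muscle genes but 4 pseudogenes on chromosome 1 that copy the mitochondrial genome. Gm28661 matched mt-Co2 at 100% of 681 bases, Gm10925 matched mt-Atp6 at 100% of 678 bases, and Gm28437 matched mt-Co3 at 100% of 783 bases. Gm28661 was at 18586 and 16804 FPKM at E18.5 against 4288 and 3895 FPKM at P7, log2 difference -2.11 ± 0.15 SE, adjusted p = 2.77e-05. The other 3 fell alike, by 1.90 for Gm10925, 2.05 for Gm28437 and 2.08 for Gm29216 on the log2 scale. The 13 protein-coding genes of the mitochondrial genome itself were listed at 0 in every library, so reads from these messages and from the nuclear copies cannot be told apart. Over whole libraries, pseudogenes took 15.6% and 14.04% at E18.5 and 5.71% and 4.99% at P7 of FPKM, and protein-coding transcripts 73.6% and 76.9% at E18.5 and 83.7% and 85.5% at P7. Weighted by length as well (coverage times length), pseudogenes took 6.21% and 5.87% against 2.04% and 1.77%. These groups did not overlap, and with 2 against 2 libraries the smallest p that an exact two-sided permutation test allows is 0.333. Long noncoding genes were called more often lower than higher, 55 lower and 23 higher of 201 lincRNA genes and 48 lower and 11 higher of 178 antisense genes, whereas 2058 of 12468 protein-coding genes were higher and 1458 lower. The library kit does not mark strand, so reads of an antisense gene and of its partner cannot be told apart.

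The study stained isolated P7 cells for the protein cardiac troponin T and reports that their purity was high. From open chromatin it also reports accessible regions at the Tnnt2 locus and promoters of an endothelial and a fibroblast marker that were not accessible. Here the label of the cells was checked at the level of RNA, against 16 cardiomyocyte markers. All 16 fell, with a median log2 difference of -4.00, and their summed level was 32968 and 42299 FPKM at E18.5 and 2923 and 1324 FPKM at P7. At P7 the sum was below that of the 12 fibroblast markers, 3063 and 3799 FPKM, in both libraries, whereas at E18.5 it was far above it. The libraries are therefore called by their age below. Mb, which encodes the oxygen-binding myoglobin, was at 2123 and 2425 FPKM at E18.5 and 204 and 70.4 FPKM at P7. P7 replicate 2 was below P7 replicate 1 for all 16.

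Markers of some other cells moved with age as well. Of all tested genes 15.4% rose and 12.3% fell. The endothelial and macrophage lists were near these shares, with 16.7% higher and 16.7% lower and with 10% higher and 10% lower. Of 12 fibroblast markers 10 rose and 0 fell, and the list summed to 591 and 600.5 FPKM at E18.5 and 3063 and 3799 FPKM at P7. Pdgfra, the platelet-derived growth factor receptor of fibroblasts, was at 1.40 and 1.65 FPKM at E18.5 against 47.02 and 51.9 FPKM at P7. Tcf21, a transcription factor of fibroblasts and their epicardial precursors, was at 7.28 and 9.33 FPKM at E18.5 and 70.1 and 59.8 FPKM at P7. Of 10 smooth muscle and pericyte markers 5 rose and 3 fell, with sums of 431 and 559.6 FPKM against 1671 and 1879 FPKM. Tagln and Pdgfrb rose by 4.55 and 3.90 while Abcc9 and Cnn1 fell by 2.37 and 1.41 on the log2 scale. The 12 endothelial markers split evenly, with 2 higher (Eng and Emcn), 2 lower (Kdr and Fabp4) and sums of 785 and 476 FPKM against 659.8 and 588 FPKM. With size factors none of the 12 was called higher and 3 were called lower, and without E18.5 replicate 2 none was called higher either (Emcn 0.78, Eng 0.91). Of 10 tested macrophage markers only Lyz2, which encodes lysozyme, rose and only C1qb, a complement component, fell (4 rose with TPM and 2 without E18.5 replicate 1), and the sums were 68.96 and 63.7 FPKM and 148 and 125 FPKM. Epicardial and mesothelial markers summed to 171 and 179 FPKM and 410.5 and 394 FPKM, with 4 of 10 higher and none lower (1 lower with size factors), led by Aldh1a2, an enzyme of retinoic acid synthesis. Of the Schwann cell and neuron markers 7 of 10 were too low to be tested and Th was at 0 in 3 of the 4 libraries, although Tubb3, a tubulin of neurons that other cells also use, rose by 4.40. With TPM, or without E18.5 replicate 2 or P7 replicate 2, 2 of these markers rose instead of 1. The part of these cells in the differences described below was not tested.

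**Figure D1:**
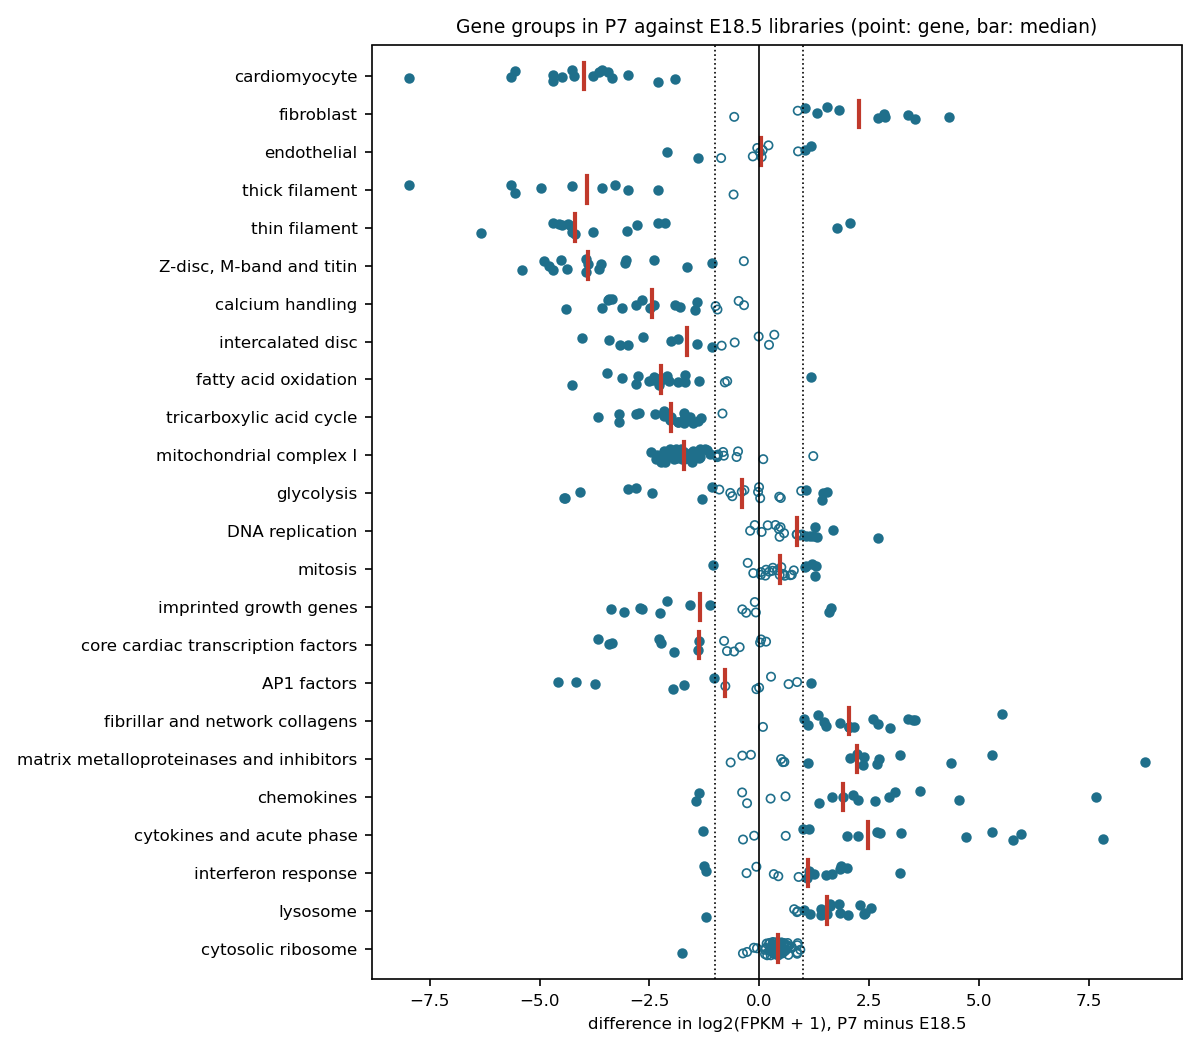
Differences between P7 and E18.5 for the tested members of 24 gene groups. Each point is 1 gene, placed by its difference in log2(FPKM + 1), P7 minus E18.5; filled points were called, open points were not, the vertical bar is the median of the group, and the dotted lines mark differences of 1. The medians of the contractile, calcium and mitochondrial groups lie to the left of 0 and those of the collagen, metalloproteinase, cytokine and lysosome groups to the right, while that of the ribosomal genes is 0.43.

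The contractile apparatus was lower at P7 almost throughout. Of 10 thick filament genes 9 fell, of 15 thin filament genes 13 fell, and of 17 tested Z-disc and M-band genes 16 fell, with medians of -3.92, -4.20 and -3.89. Myh7, the slow beta myosin heavy chain that dominates the fetal ventricle, was at 1620.0000 and 2078 FPKM at E18.5 against 7.51 and 5.20 FPKM at P7. That is a difference of -7.98 ± 0.31 (SE) on the log2 scale, adjusted p = 2.93e-06, and neither P7 library came near the level of an E18.5 library. Myh6, the fast alpha heavy chain of the adult mouse heart, was at 1243 and 1548 FPKM at E18.5 and 190.3 and 68.5 FPKM at P7 (log2 difference -3.59 ± 0.51 SE, adjusted p = 5.83e-04). Because these genes are alike in sequence, a small part of the reads of each may belong to the other. The myosin light chains of the ventricle were among the most abundant muscle messages. Myl2 was at 5267 and 6835 FPKM at E18.5 against 198 and 79.03 FPKM at P7. Myl3 was at 4291 and 5148 FPKM at E18.5 and 189 and 45.7 FPKM at P7. Both fell further than the light chains Myl4 and Myl7 of the atria and the fetal heart, whose differences were -2.99 and -2.31.

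Of the thin filament, Actc1, the cardiac alpha actin, was at 5864 and 8565 FPKM at E18.5 against 457 and 217 FPKM at P7 (log2 difference -4.49 ± 0.38 SE, adjusted p = 4.64e-05). Tnni1, the slow skeletal troponin I of the fetal heart, was at 1456 and 1832 FPKM at E18.5 and 28.5 and 12.7 FPKM at P7, and fell by 6.34 on the log2 scale. Its adult counterpart Tnni3 fell by less, 4.26, so that both troponin I genes were lower at P7. Exceptions in this group were Tpm2 and Tpm3, tropomyosins that smooth muscle and nonmuscle cells also use. Tpm2 was at 33.1 and 31.02 FPKM at E18.5 against 129 and 148 FPKM at P7 (log2 difference 2.07 ± 0.14 SE, adjusted p = 2.31e-05). Tpm3 was at 85.6 and 71.5 FPKM at E18.5 and 266 and 269.5 FPKM at P7. In each case the P7 libraries were close to each other and both lay above the E18.5 libraries.

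At the Z-disc, Csrp3, the muscle LIM protein that senses stretch, was at 605 and 927 FPKM at E18.5 against 21.8 and 12.6 FPKM at P7 (log2 difference -5.41 ± 0.29 SE, adjusted p = 9.18e-06). Myoz2, which binds calcineurin there, was at 231 and 292 FPKM at E18.5 and 12.7 and 4.58 FPKM at P7. Actn2, the alpha-actinin that cross-links the thin filaments, was at 542 and 752 FPKM at E18.5 against 38.6 and 14.6 FPKM at P7. In each of these 3 genes the second P7 library was the lowest of the 4. The only one of the 17 that was not called was Ankrd1, a stretch-responsive partner of titin, at 471 and 497 FPKM at E18.5 and 471 and 305 FPKM at P7, where one P7 library was level with an E18.5 library. Ttn, which encodes the giant spring titin, fell as well and was at 15.5 and 19.6 FPKM at E18.5 against 0.626 and 0.310 FPKM at P7.

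Genes of calcium handling and of excitation fell in most cases, and none rose on the scale used here. Of 18 calcium handling genes 14 fell, with a median of -2.44. Hrc, a calcium-binding protein of the sarcoplasmic reticulum, was at 48.2 and 58.8 FPKM at E18.5 and 2.65 and 0.785 FPKM at P7. Ryr2, the calcium release channel, was at 21.05 and 27.3 FPKM at E18.5 against 1.91 and 0.822 FPKM at P7. Atp2a2, the pump SERCA2 that refills the store, was at 614 and 754 FPKM at E18.5 and 158 and 91.2 FPKM at P7 (log2 difference -2.49 ± 0.32 SE, adjusted p = 3.53e-04), and its inhibitor Pln fell by 3.35. Jph2 and Asph, which hold or regulate the release sites, were not called, with differences of -0.99 and -0.47, although Jph2 fell by 1.06 without E18.5 replicate 1 and by 1.02 without P7 replicate 1 and then passed the threshold. Among 12 tested channel genes 8 fell and none rose (2 rose with a pseudocount of 0.1 and 2 with limma-voom). Kcnip2, a subunit of the channel that carries the early repolarising current of rodent ventricle, was at 21.9 and 38.8 FPKM at E18.5 against 0.116 and 0.0537 FPKM at P7. Kcne1, a subunit of the slow delayed rectifier, was at 52.8 and 68.5 FPKM at E18.5 and 5.19 and 2.52 FPKM at P7. For Kcnip2 both P7 libraries were near 0. At the intercalated disc, where neighbouring cells join, 9 of 14 genes fell and 5 were not called. Bves, a membrane protein of the disc, fell by 4.05 on the log2 scale. Dsp, the desmoplakin of desmosomes, fell and was at 52.5 and 50.7 FPKM at E18.5 against 5.30 and 2.83 FPKM at P7. Members that were not called included Cdh2 (N-cadherin) at 81.3 and 58.3 FPKM at E18.5 and 92.1 and 83.4 FPKM at P7 and Vcl (vinculin) at 47.03 and 35.1 FPKM at E18.5 against 45.2 and 50.1 FPKM at P7. In the list of natriuretic peptides and fetal genes 10 of 12 fell and none rose (1 rose with TPM). Nppb, the peptide that ventricles release under load, was at 295 and 449.7 FPKM at E18.5 and 37.9 and 14.1 FPKM at P7. Nppa, its atrial relative, was at 859.6 and 1559.9 FPKM at E18.5 against 388 and 238 FPKM at P7, with a wide spread at E18.5, and was not called without E18.5 replicate 2, with a difference of -1.50.

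**Figure D2:**
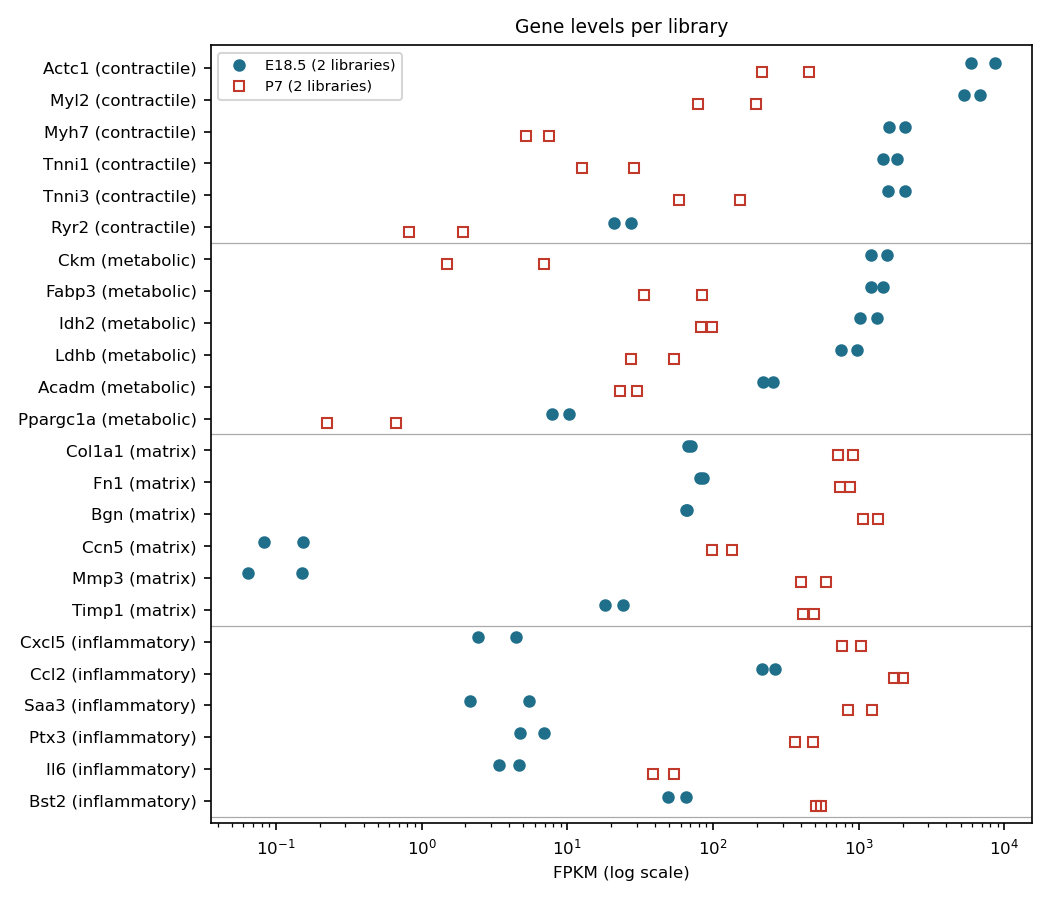
Levels of 24 genes in each library. The horizontal axis is FPKM on a log scale, filled circles are the 2 libraries of E18.5 and open squares the 2 libraries of P7, and the genes are grouped as contractile, metabolic, matrix and inflammatory. Muscle and metabolic genes lie to the right at E18.5 and matrix and inflammatory genes to the right at P7, with no overlap for any of the 24.

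Most genes of mitochondrial energy metabolism fell, while those of glycolysis were divided. Of 20 fatty acid oxidation genes 17 fell and 1 rose, of 23 genes of the tricarboxylic acid cycle and its entry 22 fell, and of the nuclear genes of complex I and of complexes III to V, 36 of 46 and 38 of 41 fell, with 1 of the latter higher (Cox4i2). Medians were -2.23, -2.01, -1.71 and -1.98. The mitochondrial ribosome did not follow them, since 68 of its 78 proteins were not called, 9 fell and 1 rose. Without E18.5 replicate 2 the fallen ones were 5, and with TPM 3. Idh2, the mitochondrial isocitrate dehydrogenase, was at 1018 and 1341 FPKM at E18.5 and 99.1 and 82.6 FPKM at P7 (log2 difference -3.68 ± 0.18 SE, adjusted p = 7.41e-06). Acadm, the medium-chain acyl-CoA dehydrogenase, was at 219.8 and 258 FPKM at E18.5 against 30.3 and 22.8 FPKM at P7. Fabp3, which carries fatty acids through the cytosol of muscle, was at 1217 and 1474 FPKM at E18.5 and 83.8 and 33.7 FPKM at P7 and fell by 4.63 on the log2 scale. Of 13 tested regulators of this program 5 fell, and the 1 that rose was Ppard (2 rose with TPM). Ppargc1a (PGC1 alpha) fell by 2.82 and Esrrg (ERR gamma) by 2.12. Ppara was low at both ages, at 1.06 and 1.44 FPKM at E18.5 against 0.378 and 0.0557 FPKM at P7, and not called, although it was with a pseudocount of 0.1, at -2.29, and without E18.5 replicate 1 or P7 replicate 1, at -1.02 and -1.09. Of 14 genes of lipid uptake and storage 8 fell and 2 rose, and of 5 tested genes of ketone body use 2 fell. Among the genes that rose, Cpt1a, the liver form of the enzyme that admits fatty acids to mitochondria, was at 10.9 and 12.7 FPKM at E18.5 and 26.99 and 29.2 FPKM at P7. Plin2, which coats lipid droplets, was at 31.6 and 26.9 FPKM at E18.5 against 126 and 109 FPKM at P7. Angptl4, an inhibitor of lipoprotein lipase, was at 11.9 and 5.10 FPKM at E18.5 and 75.1 and 97.3 FPKM at P7. For these 3 genes both P7 libraries lay above both E18.5 libraries.

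Of 23 glycolysis genes 4 rose, 8 fell and 11 were not called. Slc2a1, the glucose transporter GLUT1, was at 50.5 and 37.1 FPKM at E18.5 against 118 and 139.7 FPKM at P7 (log2 difference 1.55 ± 0.20 SE, adjusted p = 3.81e-04). Pgam1, the widely used phosphoglycerate mutase, was at 134 and 137 FPKM at E18.5 and 328 and 404 FPKM at P7. The muscle enzymes fell, Eno3 from 450.5 and 572 FPKM to 41.1 and 20.7 FPKM and Ldhb, the heart form of lactate dehydrogenase, from 756 and 975 FPKM to 54.1 and 27.4 FPKM. Gapdh and Pgk1 were not called and were at 1453 and 2089 FPKM at E18.5 against 1077 and 1130.01 FPKM at P7 and at 667 and 750.1 FPKM at E18.5 and 508 and 566 FPKM at P7.

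Many of these enzymes exist as a muscle or heart form and a widely expressed form, and the share of a form within its pair does not depend on how a library is scaled. In 10 such pairs, chosen after the values were seen and so given with no test, the share of the muscle or heart form was lower in both P7 libraries in all 10. In 4 further pairs, chosen in the same way, both genes are contractile genes of the heart, and the share of the fetal or atrial form was lower in 2 and higher in 2. For creatine kinase, Ckm made up 86.1% and 85.5% at E18.5 and 7.60% and 1.55% at P7 of Ckm and Ckb together. For enolase, Eno3 made up 45.6% and 48.3% at E18.5 and 3.72% and 1.74% at P7 of Eno3 and Eno1. Phosphoglycerate mutase gave Pgam2 76.4% and 78.5% at E18.5 and 9.20% and 3.07% at P7, carnitine palmitoyltransferase 1 gave Cpt1b 92.2% and 92.7% at E18.5 and 27.2% and 12.6% at P7, and cytochrome c oxidase subunit 6a gave Cox6a2 45.9% and 45.6% at E18.5 and 7.52% and 2.22% at P7. In each of these the E18.5 libraries agreed within 3 percentage points while P7 replicate 2 held less of the muscle form than P7 replicate 1. Over their own lists, 3 of 6 creatine kinase and creatine supply genes (with 1 higher with TPM) and 9 of 10 tissue isoforms of cytochrome c oxidase fell, while Cox4i2, the isoform of lung and of low oxygen, rose. Among contractile pairs, Myh7 made up 56.6% and 57.3% at E18.5 and 3.80% and 7.05% at P7 of the 2 ventricular heavy chains, and Tnni1 47.8% and 46.7% at E18.5 and 15.8% and 17.8% at P7 of Tnni1 and Tnni3. The pairs with a higher share were the light chains, where Myl7 made up 7.37% and 5.997% at E18.5 and 33.8% and 47.5% at P7 of Myl7 and Myl2, and Myl4 10.3% and 10.2% at E18.5 and 29.6% and 54.9% at P7 of Myl4 and Myl3. The P1 and P3 means lay between those of E18.5 and P7 in 11 of the 14 pairs. In the myosin heavy chain pair they did not, since Myh7 was already at 2.83% and 2.37% of the pair in the P1 libraries.

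**Figure D3:**
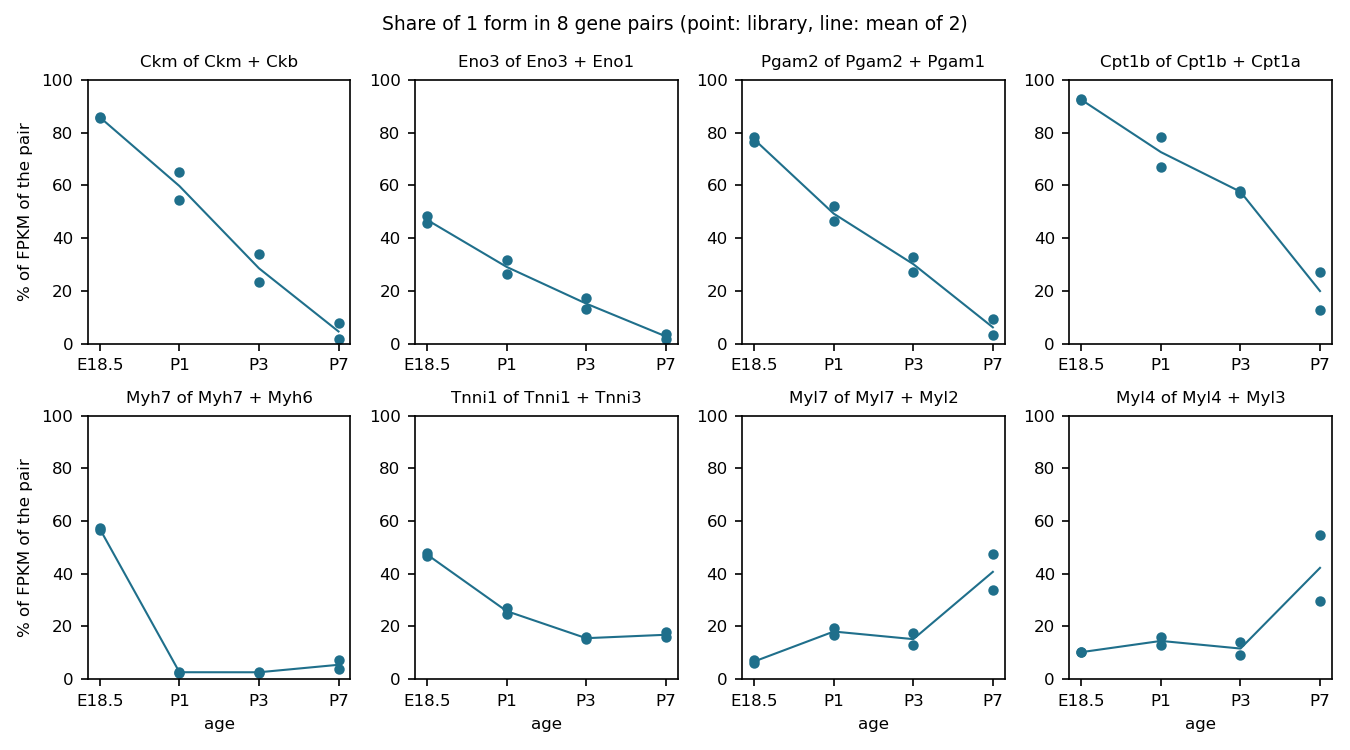
Share of the muscle, heart or fetal form in 8 pairs of related genes. Each panel gives the FPKM of the named form as a percentage of the pair in the 8 mouse RNA libraries, ordered by age, with 1 point for each library and a line through the means of 2. Shares fall from E18.5 to P7 in the panels of metabolic enzymes and of Myh7 and Tnni1, and rise in those of Myl7 and Myl4.

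Cell cycle genes did not fall as a group. Over all tested genes, 15.4% rose and 12.3% fell. Of 20 DNA replication genes 7 rose and none fell (0), and of 23 genes of mitosis 5 rose and 1 fell. With size factors 6 and 3 rose, and with TPM 11 and 8 rose. The mitosis gene that fell was not called with TPM. Without E18.5 replicate 2 the replication genes that rose were 11, and without P7 replicate 1 the mitosis genes that rose were 3. Tyms, which makes thymidylate for DNA synthesis, was at 3.92 and 4.04 FPKM at E18.5 against 33.8 and 29.8 FPKM at P7 (log2 difference 2.72 ± 0.25 SE, adjusted p = 6.78e-05). Mcm4, a subunit of the replication helicase, was at 9.66 and 14.3 FPKM at E18.5 and 32.1 and 29.4 FPKM at P7. Plk1, a kinase of mitosis, was at 18.5 and 25.4 FPKM at E18.5 against 51.8 and 55.2 FPKM at P7. The rises of Mcm4 and Plk1 were small beside that of Tyms. The proliferation marker Mki67 was at 15.04 and 18.5 FPKM at E18.5 and 16.01 and 18.5 FPKM at P7, where the ranges overlapped, and Cenpa, the centromere histone, fell by 1.05, or by 0.92 and below the threshold without P7 replicate 1. Of 15 cyclins and inhibitors of the cycle 3 rose and 2 fell (5 and 1 with TPM, and 1 fell without E18.5 replicate 2 or P7 replicate 2). The 3 and 2 called are 20% and 13.3% of that list, near the shares of all tested genes. Cdkn2a, which encodes p16 and p19, was at 0.215 and 0.336 FPKM at E18.5 against 7.91 and 7.14 FPKM at P7. Cdkn2b (p15) was at 4.24 and 1.64 FPKM at E18.5 and 19.98 and 19.9 FPKM at P7, so that both rose from low levels. Cdkn1c (p57), an imprinted inhibitor of fetal tissue, was at 40.7 and 45.9 FPKM at E18.5 against 11.7 and 7.45 FPKM at P7 and fell. Of 8 tested high mobility group genes 2 rose and none fell (1 fell with size factors or without P7 replicate 1). Hmga2, a chromatin protein of growing fetal and mesenchymal cells, was at 6.32 and 2.04 FPKM at E18.5 and 51.04 and 38.98 FPKM at P7 (log2 difference 3.27 ± 0.41 SE, adjusted p = 2.98e-04), and Cdkn1a (p21) was not called at 305 and 236 FPKM at E18.5 against 165 and 189.97 FPKM at P7.

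Imprinted growth genes were mostly lower. Of 14 tested, 8 fell and 2 rose, with a median of -1.35. H19, a maternally expressed noncoding RNA, was at 577 and 611 FPKM at E18.5 and 55.2 and 58.03 FPKM at P7 (log2 difference -3.37 ± 0.26 SE, adjusted p = 3.54e-05). Igf2, the fetal growth factor beside it, was at 102 and 309 FPKM at E18.5 against 14.6 and 27.5 FPKM at P7. The E18.5 libraries of Igf2 lay far apart, yet both were above the P7 libraries. Mest and Dlk1 fell by 2.70 and 2.66 on the log2 scale, and the members that rose were Ndn, by 1.60, and Ddit4l, a stress response gene that the list also holds. In the insulin-like growth factor axis 3 of 17 genes rose and 5 fell. Igfbp7, a secreted binding protein of vessels and fibroblasts, was at 32.4 and 24.1 FPKM at E18.5 and 643 and 690.2 FPKM at P7, and Igfbp3, the main carrier in blood, rose by 2.13, whereas Igf2r and Insr, the receptors for IGF2 and insulin, fell by 1.28 and 1.09. Without E18.5 replicate 1 Insr fell by 0.91 and was not called.

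Among 15 core cardiac transcription factors 8 fell and none rose. Hey2, a Notch target of the compact ventricular wall, was at 16.6 and 19.1 FPKM at E18.5 against 0.740 and 0.961 FPKM at P7 (log2 difference -3.35 ± 0.17 SE, adjusted p = 8.35e-06). Irx4, a factor of ventricular identity, was at 20.9 and 25.98 FPKM at E18.5 and 1.34 and 0.560 FPKM at P7. Nkx2-5, the homeobox factor that marks the heart from its first cells, was at 93.1 and 109 FPKM at E18.5 against 13.6 and 5.23 FPKM at P7. For all 3 both P7 libraries were well below both E18.5 libraries. Members that were not called included Gata4 at 71.3 and 65.9 FPKM at E18.5 and 50.1 and 41.8 FPKM at P7 and Gata6 at 66.8 and 63.5 FPKM at E18.5 against 41.5 and 32.97 FPKM at P7. Of 9 tested MEF2 factors, their partners and class IIa deacetylases 5 fell and none rose (1 rose without E18.5 replicate 1). Mef2c, one of the factors that switch on muscle genes, was at 4.12 and 4.16 FPKM at E18.5 and 0.852 and 1.04 FPKM at P7 and fell, Mef2d fell by 1.12 (0.96 and not called without P7 replicate 2), and Mef2a was not called at 20.4 and 17.7 FPKM at E18.5 against 9.66 and 9.83 FPKM at P7. Mef2a lay close to the threshold, with a difference of -0.997 to -0.797 when 1 library was left out. With size factors its difference was -1.07 and it was called. Hdac9, a class IIa deacetylase that binds MEF2, was at 3.99 and 4.03 FPKM at E18.5 and 0.141 and 0.199 FPKM at P7.

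Genes of the immediate early response, which many cells switch on within minutes of stress or of being dissociated, fell or were not called, with 1 exception. Of 13 AP1 factors 6 fell and 1 rose (2 with TPM or without E18.5 replicate 1, and none with size factors or without E18.5 replicate 2 or P7 replicate 1), and of 14 other immediate early genes 7 fell and none rose. Fos was at 160.3 and 182 FPKM at E18.5 against 7.61 and 9.56 FPKM at P7 (log2 difference -4.17 ± 0.30 SE, adjusted p = 2.71e-05). Fosb was at 41.5 and 65.4 FPKM at E18.5 and 1.04 and 1.40 FPKM at P7. Atf3, a stress-induced partner of Jun, was at 142 and 205 FPKM at E18.5 against 11.8 and 11.8 FPKM at P7. In all 3 the P7 libraries were close to each other and far below those of E18.5. Jun fell by 1.96, while Junb was at 169 and 193 FPKM at E18.5 and 164 and 198 FPKM at P7 and not called. Fosl1, an AP1 member of migrating and injured cells, was the 1 that rose, from 14.9 and 8.82 FPKM to 28.1 and 26.04 FPKM, and was not called with size factors, nor without E18.5 replicate 2, P7 replicate 1 or P7 replicate 2, where the difference was 0.82, 1.12 and 1.22. Nr4a1, an orphan nuclear receptor of the same response, was at 79.2 and 65.95 FPKM at E18.5 against 5.32 and 4.74 FPKM at P7. Of 13 heat shock chaperones 5 fell and none rose. Hspa1a was at 221 and 483 FPKM at E18.5 and 11.1 and 12.3 FPKM at P7 and its near-identical neighbour Hspa1b at 217 and 475 FPKM at E18.5 against 22.8 and 25.2 FPKM at P7, so that the division between them is uncertain, while the constitutive Hspa8 was at 589.7 and 740.2 FPKM at E18.5 and 645 and 611 FPKM at P7. In a list of hormone receptors and targets 3 of 7 tested genes fell and none rose (1 rose with TPM), the falls being those of Tsc22d3 (GILZ) by 2.74, Per1 by 1.31 and Thra by 1.11 on the log2 scale. Thra was not called with TPM (-0.87) or without E18.5 replicate 2 (-0.93). The tissue was dissociated in the same way at both ages as far as the methods say, and handling and age cannot be told apart in these values.

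Most genes of the extracellular matrix rose. Of 18 collagen chains 17 rose and none fell, with a median of 2.05, and 15 of 18 rose with size factors. Col1a1, a chain of the main fibrillar collagen, was at 70.6 and 67.1 FPKM at E18.5 against 719.8 and 917 FPKM at P7 (log2 difference 3.54 ± 0.18 SE, adjusted p = 8.35e-06). Col8a1, a network collagen of vessels and injured tissue, was at 0.560 and 0.177 FPKM at E18.5 and 54.5 and 70.2 FPKM at P7 and had the largest rise of the 18. Col18a1 was not called, at 41.3 and 27.3 FPKM at E18.5 against 34.7 and 36.6 FPKM at P7. Of 24 proteoglycans and glycoproteins 18 rose and 2 fell (1 fell with TPM). Ccn5, a matricellular protein of the CCN family, was at 0.0827 and 0.153 FPKM at E18.5 and 97.7 and 135 FPKM at P7 (log2 difference 6.70 ± 0.24 SE, adjusted p = 2.93e-06). Spp1 (osteopontin) was at 4.28 and 3.71 FPKM at E18.5 against 93.99 and 113 FPKM at P7. Bgn (biglycan) was at 65.9 and 65.1 FPKM at E18.5 and 1065 and 1349.9 FPKM at P7. Fn1 (fibronectin) was at 84.8 and 81.5 FPKM at E18.5 against 749 and 869 FPKM at P7. In all 4 the ages were far apart relative to the spread between libraries. The 2 that fell were Has1, a hyaluronan synthase, and Fmod (fibromodulin). Has1 was at 5.63 and 8.50 FPKM at E18.5 and 1.13 and 0.453 FPKM at P7. Fmod was at 10.3 and 9.999 FPKM at E18.5 against 4.11 and 4.16 FPKM at P7. Elastin was not called, with Eln at 96.96 and 158 FPKM at E18.5 and 92.4 and 133 FPKM at P7. Of 18 tested genes of TGF beta and BMP signalling 7 rose and 3 fell. Without E18.5 replicate 2 4 rose. Tgfb3, one of the TGF beta ligands, was at 5.47 and 5.95 FPKM at E18.5 against 27.3 and 32.2 FPKM at P7, and Bmp7 and Bmp10 fell by 3.67 and 2.53.

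Of 17 tested metalloproteinases, which cut the matrix, and their inhibitors 11 rose, 6 were not called and none fell, with a median of 2.22. Mmp3 (stromelysin 1) was at 0.151 and 0.0649 FPKM at E18.5 and 403 and 594 FPKM at P7, the largest rise of any gene tested (log2 difference 8.79 ± 0.23 SE, adjusted p = 2.63e-06), from a level at which a gene is hardly measured. Mmp12, the elastase of macrophages, was at 0.632 and 0.245 FPKM at E18.5 against 55.4 and 55.5 FPKM at P7. Timp1, an inhibitor of these enzymes, was at 24.3 and 18.1 FPKM at E18.5 and 417 and 492 FPKM at P7. Mmp9 and Mmp13 were not called, at 1.31 and 1.22 FPKM at E18.5 against 0.856 and 1.12 FPKM at P7 and at 5.51 and 3.31 FPKM at E18.5 and 3.03 and 3.08 FPKM at P7. AP1 factors are known to act on several of these promoters through the sequence TGANTCA, and that motif was searched on both strands in the 250 bases before the start of the most expressed transcript of each gene. It was found in 6 of the 17 (Mmp3, Mmp9, Mmp10, Mmp12, Mmp13 and Mmp19), of which 3 rose and 3 were not called, although Mmp10 rose by 1.35 with a pseudocount of 0.1 and by 1.60 with limma-voom and was called there. Among all tested genes 4.54% held it, among genes that rose 5.75%, and among genes that fell 5.01%. The windows of Mmp3 (chr9:7445572-7445821) and Mmp12 (chr9:7347156-7347405), both on the plus strand of GRCm38, are shown because they belong to the matrix enzymes with the largest rise, with the match in capitals. It begins 46 bases before the start of Mmp3 and 76 bases before that of Mmp12.
Mmp3: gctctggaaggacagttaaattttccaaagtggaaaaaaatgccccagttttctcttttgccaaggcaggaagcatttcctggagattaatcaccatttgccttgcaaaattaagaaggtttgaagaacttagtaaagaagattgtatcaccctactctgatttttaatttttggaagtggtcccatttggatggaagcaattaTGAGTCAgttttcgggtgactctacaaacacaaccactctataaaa
Mmp12: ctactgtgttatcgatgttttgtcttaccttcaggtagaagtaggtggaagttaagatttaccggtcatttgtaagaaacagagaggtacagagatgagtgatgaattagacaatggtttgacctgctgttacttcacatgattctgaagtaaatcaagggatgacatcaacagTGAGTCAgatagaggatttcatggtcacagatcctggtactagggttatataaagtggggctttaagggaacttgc

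A loose form of the MEF2 motif, CTANNNNTAG with any base at its 4 middle positions, was searched in the same windows. Matches therefore include sites with G or C in the middle. It was found in 3.02% of all tested genes, 2.55% of those that rose and 4.55% of those that fell. In the contractile, calcium and cytochrome c oxidase lists, it stood before Mybpc3, Cryab, Des, Myom2, Xirp2, Trdn, Slc8a1 and Cox6a2, all of which fell, as did most members of these lists. Most members held no match. The motif stood before 1 of 10 thick filament, 0 of 15 thin filament and 4 of 17 Z-disc and M-band genes. It stood before 2 of 18 calcium handling genes, 1 of 10 cytochrome c oxidase isoforms and 0 of 16 cardiomyocyte markers. Matches of different motifs were counted separately, also where they overlap. Of the other motifs searched, the CArG box of serum response factor stood before 1.62% of genes that rose and 1.92% of those that fell, the TATA box (TATAAA) before 7.38% and 9.50%, and the E-box (CANNTG) before 59.2% and 62.7%, beside 1.26%, 7.73% and 57.9% of all tested genes. Cited1, a transcriptional coregulator of fetal tissue, was at 85.6 and 106 FPKM at E18.5 against 1.46 and 0.782 FPKM at P7. Cox6a2 was at 749 and 913 FPKM at E18.5 and 36.3 and 9.12 FPKM at P7. Their windows, Cited1 on chrX:102252182-102252431 and Cox6a2 on chr7:128206388-128206637, both on the minus strand of GRCm38 and written in the direction of the gene, are shown as those of the genes with the largest falls that held a match. Capitals mark the match to this loose pattern, which begins 234 and 28 bases before the start. The middle of the Cited1 match holds a G, and that of Cox6a2 holds only A.
Cited1: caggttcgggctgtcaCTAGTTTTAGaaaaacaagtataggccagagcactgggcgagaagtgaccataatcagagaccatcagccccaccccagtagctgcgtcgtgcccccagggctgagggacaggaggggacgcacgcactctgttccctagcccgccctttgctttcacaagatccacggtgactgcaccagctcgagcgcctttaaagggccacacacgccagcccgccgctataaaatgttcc
Cox6a2: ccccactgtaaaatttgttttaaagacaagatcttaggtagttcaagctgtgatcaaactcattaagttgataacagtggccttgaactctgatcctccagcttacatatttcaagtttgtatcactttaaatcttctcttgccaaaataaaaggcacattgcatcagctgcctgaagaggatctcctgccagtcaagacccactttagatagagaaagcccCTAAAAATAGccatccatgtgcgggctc
A match gives only that the letters are there. It does not show that a factor binds, and binding was not measured here.

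Inflammatory and acute phase genes were higher at P7 in large part. Of 17 tested chemokines 11 rose and 2 fell (1 fell without E18.5 replicate 2 or P7 replicate 1), and of 16 tested cytokines and acute phase genes 12 rose and 1 fell (none without E18.5 replicate 1). Cxcl5, an attractant of neutrophils, was at 4.47 and 2.43 FPKM at E18.5 against 763 and 1032 FPKM at P7 (log2 difference 7.68 ± 0.31 SE, adjusted p = 3.69e-06). Ccl2, an attractant of monocytes, was already high at E18.5, at 267 and 217 FPKM at E18.5 and 1735 and 2010.5 FPKM at P7. Ccl7, which acts on the same cells, was at 79.5 and 77.9 FPKM at E18.5 against 914 and 1121 FPKM at P7. Ccl8 was listed at 0 in both E18.5 libraries and at 2.66 and 2.79 FPKM at P7. Saa3, an acute phase protein that mouse tissues make outside the liver, was at 5.43 and 2.14 FPKM at E18.5 and 1228 and 839 FPKM at P7 (log2 difference 7.82 ± 0.41 SE, adjusted p = 8.71e-06). Lcn2 (lipocalin 2) was at 3.19 and 4.32 FPKM at E18.5 against 123 and 122 FPKM at P7. Ptx3 (pentraxin 3) was at 6.87 and 4.74 FPKM at E18.5 and 367 and 483 FPKM at P7. The increase of these 3 acute phase genes was larger than that of Il6, the cytokine known to induce many of them. Il6 was at 3.39 and 4.63 FPKM at E18.5 against 38.8 and 53.6 FPKM at P7. The members that fell were Ccl4 and Ccl5, chemokines of macrophages and lymphocytes, by 1.44 and 1.36, and Il1b, the interleukin of activated macrophages, by 1.28. Ccl4 was not called without E18.5 replicate 2 or P7 replicate 1 (-1.28 and -1.12), nor Il1b without E18.5 replicate 1 (-0.99). Tnf was not called, at 6.77 and 9.91 FPKM at E18.5 and 6.81 and 8.25 FPKM at P7. The NF-kB motif GGGNNNTTCC stood in the windows of 9 of the 17 chemokines, compared with 5.32% of all tested genes. Among genes that rose 6.13% held it, and among genes that fell 4.66%. Of these 9 chemokines, 6 rose (Ccl2, Ccl9, Ccl20, Cxcl1, Cxcl3 and Cxcl5), beside 11 of all 17, Ccl5 fell, and Cxcl2 and Cxcl10 were not called.

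**Figure D4:**
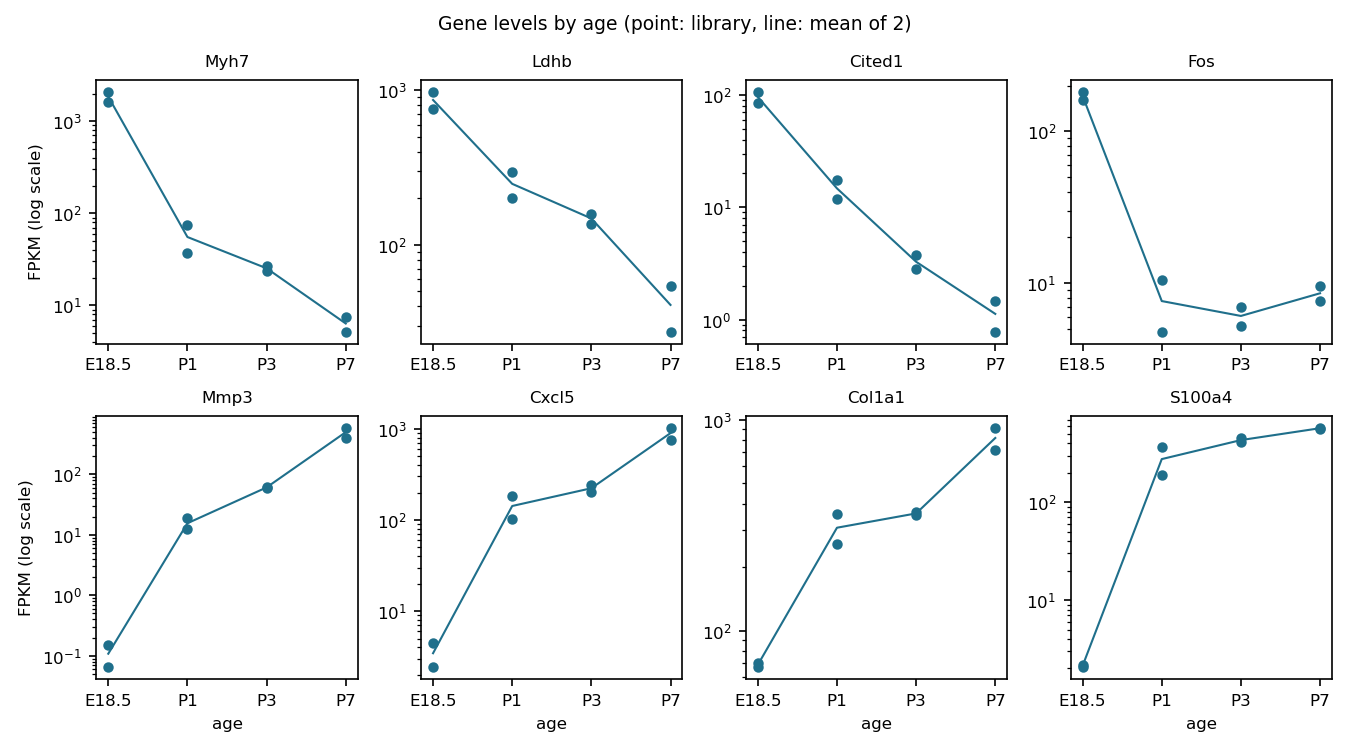
Levels of 8 genes in the 8 mouse RNA libraries by age. Each panel gives FPKM on a log scale, 1 point for each library and a line through the means of 2, for the ages E18.5 to P7 in order. The upper panels hold genes that fell (Myh7, Ldhb, Cited1 and Fos) and the lower panels genes that rose (Mmp3, Cxcl5, Col1a1 and S100a4), and the libraries of E18.5 and P7 do not overlap in any of them.

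Members of the interferon, lysosome and S100 groups rose as well. Of 16 interferon response genes 9 rose and 2 fell (7 and 2 with size factors). Bst2 (tetherin) was at 65.4 and 49.2 FPKM at E18.5 against 551 and 509 FPKM at P7, and the falls were those of Mx1 and Rsad2. Without P7 replicate 1 neither was called (-0.95 and -0.99), and Rsad2 was not without E18.5 replicate 1 (-0.83). In antigen presentation 4 of 10 tested genes rose and 1 fell (2 fell without E18.5 replicate 1). B2m, which class I molecules need, rose from 369 and 288 FPKM to 1666 and 1751 FPKM, while Cd74, the class II chaperone of professional antigen-presenting cells, fell from 6.18 and 10.7 FPKM to 0.497 and 0.423 FPKM. Of 19 lysosome genes 15 rose and 1 fell (13 and 1 with size factors, and none fell without P7 replicate 2), with a median of 1.54. Ctsz (cathepsin Z) was at 39.6 and 35.6 FPKM at E18.5 and 203 and 199 FPKM at P7. Ctsk (cathepsin K), a protease that can degrade collagen, was at 9.12 and 7.81 FPKM at E18.5 against 44.6 and 46.5 FPKM at P7. Tfeb, a transcription factor that drives lysosome genes, was the 1 that fell, by 1.22 (0.99 and not called without P7 replicate 2). Among 10 tested S100 proteins, which bind calcium, 3 rose and 2 fell (1 fell without E18.5 replicate 1, E18.5 replicate 2 or P7 replicate 2). S100a4 was at 2.19 and 2.07 FPKM at E18.5 and 563 and 581 FPKM at P7 (log2 difference 7.52 ± 0.26 SE, adjusted p = 2.93e-06). S100a6 was at 24.5 and 22.7 FPKM at E18.5 against 646 and 609 FPKM at P7. Both are proteins of fibroblasts and other nonmuscle cells, and S100a1, the cardiomyocyte form, fell by 2.66. Of 17 glutathione and NRF2 target genes 6 rose and 1 fell, led by Gsta3 at 0.468 and 0.853 FPKM at E18.5 and 26.9 and 25.9 FPKM at P7. Hmox1 was not called, and its E18.5 libraries lay apart, at 611 and 236 FPKM at E18.5 against 439 and 454 FPKM at P7. Of 14 hypoxia response genes 5 rose and 1 fell. Adm (adrenomedullin) was at 23.5 and 30.4 FPKM at E18.5 and 268 and 329.6 FPKM at P7, Hif1a rose by 1.53, and Vegfa was not called, at 95.9 and 93.4 FPKM at E18.5 against 81.9 and 114 FPKM at P7.

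Integrins and focal adhesion genes gave 7 rises and 1 fall of 19 (2 falls without E18.5 replicate 2). Itgb5 rose from 20.9 and 26.3 FPKM to 84.99 and 105 FPKM, and the fall was that of Itgb1bp2 (melusin), a muscle protein that senses load, from 69.4 and 90.6 FPKM to 5.20 and 2.57 FPKM. Genes of the basic machinery of the cell stayed below the threshold for the most part. Of 80 cytosolic ribosome genes 79 were not called, with a median of 0.43, and with TPM 7 rose. The 1 that fell, Rpl3l, is the form of Rpl3 found in muscle, at 2.30 and 3.28 FPKM at E18.5 and 0.229 and 0 FPKM at P7. Of 38 proteasome genes 4 rose (1 with size factors), and of 18 tRNA synthetases 2 rose (none with size factors, 6 with TPM or without E18.5 replicate 1, and 1 without E18.5 replicate 2).

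Of 21 tested genes that the study names beside a mouse measurement 5 rose and 7 fell, a list that is not independent of these samples. Among the largest rises were also the genes that follow. Plac8 was at 0.368 and 4.51 FPKM at E18.5 against 139 and 207 FPKM at P7. Tmem45a was at 0.886 and 0.812 FPKM at E18.5 and 69.01 and 92.8 FPKM at P7. Hp (haptoglobin), from the acute phase list, was at 1.02 and 2.03 FPKM at E18.5 against 155 and 119 FPKM at P7. Hsd11b1, which regenerates active glucocorticoid, was at 0.169 and 1.73 FPKM at E18.5 and 52.9 and 64.1 FPKM at P7. Gpr176, an orphan receptor, was at 0.129 and 0.105 FPKM at E18.5 against 31.5 and 33.1 FPKM at P7. Serpina3n, an acute phase protease inhibitor, was at 1.72 and 1.004 FPKM at E18.5 and 77.4 and 109 FPKM at P7. All of these rose, and both P7 libraries were far above both E18.5 libraries. Among the largest falls were also genes outside muscle and blood. Ptgds, the prostaglandin D synthase, was at 198 and 235 FPKM at E18.5 against 4.35 and 2.65 FPKM at P7. Bex1, a small adaptor of neural and developing tissue, was at 136 and 173 FPKM at E18.5 and 4.97 and 1.67 FPKM at P7. Among the genes with the highest levels at P7 were Eef1a1, the translation factor that brings tRNA to the ribosome, at 3714 and 3662 FPKM at E18.5 against 4656 and 4748 FPKM at P7 and Ftl1, the ferritin light chain, at 1541 and 1336 FPKM at E18.5 and 2723 and 2167 FPKM at P7, neither of which was called (Ftl1 was with TPM, at 1.02). Gm22133, at 1519.9 and 1636 FPKM at E18.5 against 3286 and 2646 FPKM at P7, and AY036118, at 8674 and 2164 FPKM at E18.5 and 4185 and 933 FPKM at P7, were of the same order and not called either, except Gm22133 with TPM (1.17), after rescaling without erythroid and mitochondrially encoded genes (1.08) and without P7 replicate 2 (1.06).

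Transcripts of the same gene also changed their shares. The share of a transcript in the FPKM of its gene was compared for 15360 transcripts of 6278 genes, and 241 transcripts (1.57%) of 172 genes differed by at least 20 percentage points at an adjusted p under 0.05 in limma's test with Benjamini-Hochberg adjustment. This count rests on the spread of all 8 mouse libraries. Without P7 replicate 1 it was 137 and without P7 replicate 2 it was 141. Of the 18 called transcripts named below, 12 lost the call when some single library was left out, and Actr8-204, Furin-202, Rbpj-203, Rps24-210, Tpm1-216 and Tpm2-203 kept it. When only the 4 libraries of E18.5 and P7 entered the fit none was called (0), the smallest adjusted p was 0.105, and 2838 transcripts had an unadjusted p under 0.05, of which 866 differed by at least 20 points. Of the 172 genes 37 were also called higher in level, 22 lower and 113 neither. Among all 6278 genes compared for shares, 832 were called higher in level, 550 lower and 4896 neither. Protein-coding transcripts, 11383 of those compared, gave 119 of the called rises in share and 76 of the called falls. The 2127 retained-intron transcripts gave 3 rises and 14 falls, and the 921 transcripts marked for nonsense-mediated decay 3 rises and 14 falls. In 48 genes one protein-coding transcript rose in share while another fell. StringTie divides reads among annotated transcripts, so these shares are estimates and depend on few reads where transcripts differ by short stretches.

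For several genes the transcripts that exchanged differ by mutually exclusive exons, which put one stretch of sequence in place of another. Pkm encodes pyruvate kinase and has an M1 form (Pkm-202), found in differentiated muscle, and an M2 form (Pkm-201), found in fetal and dividing cells. The M2 form made up 23.4% and 28.6% at E18.5 and 87.4% and 85.1% at P7 of Pkm (difference 60.3 ± 5.61 percentage points (SE), adjusted p = 0.011), and the M1 form 71.97% and 67.1% at E18.5 and 9.61% and 10.7% at P7. The level of the whole gene was not called, with Pkm at 771 and 888 FPKM at E18.5 against 1162 and 1166 FPKM at P7. The forms use exon 9 of 11 at chr9:59675029-59675195 (M1) or chr9:59675568-59675734 (M2), plus strand of GRCm38, each of 167 bases with 64 differing. These exons are shown because they carry the exchange, with differing bases in capitals.
Pkm M1 exon: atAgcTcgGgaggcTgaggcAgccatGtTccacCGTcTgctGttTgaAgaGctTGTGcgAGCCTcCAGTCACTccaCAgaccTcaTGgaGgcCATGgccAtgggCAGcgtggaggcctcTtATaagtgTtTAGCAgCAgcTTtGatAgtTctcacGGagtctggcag
Pkm M2 exon: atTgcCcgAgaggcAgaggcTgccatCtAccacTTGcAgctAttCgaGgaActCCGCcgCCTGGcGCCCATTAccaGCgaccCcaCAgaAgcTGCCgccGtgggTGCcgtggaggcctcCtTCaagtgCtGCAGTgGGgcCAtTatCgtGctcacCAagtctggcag

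Tpm2 encodes beta tropomyosin. Its transcript Tpm2-202, with the exons known from skeletal muscle, went from 72.7% and 55.8% to 6.25% and 7.66% of the gene, and Tpm2-203, with those of smooth muscle and nonmuscle cells, made up 13.7% and 23.7% at E18.5 and 87.2% and 82.02% at P7 (difference 65.9 ± 5.38 percentage points (SE), adjusted p = 0.00903). The gene as a whole rose, as given above. The forms differ in exon 6 of 9, at chr4:43518644-43518719 for Tpm2-202 and chr4:43519003-43519078 for Tpm2-203 on the minus strand, with 35 of 76 bases different, and in the coding part of the last exon, with 47 of 80 different. The sixth exons are shown, differing bases in capitals.
Tpm2-202 exon: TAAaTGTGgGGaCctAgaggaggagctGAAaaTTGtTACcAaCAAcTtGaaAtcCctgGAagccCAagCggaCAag
Tpm2-203 exon: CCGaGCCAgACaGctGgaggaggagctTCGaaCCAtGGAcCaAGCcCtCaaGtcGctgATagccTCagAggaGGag
In Tpm1, alpha tropomyosin, Tpm1-205 made up 84.1% and 87.8% at E18.5 and 37.7% and 22.4% at P7 and Tpm1-216, which has another exon for the last coding part, 3.88% and 1.72% at E18.5 and 28.8% and 28.2% at P7. The second P7 library held less of Tpm1-205 than the first, and both lay below E18.5.

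Slc25a3 encodes the mitochondrial carrier for phosphate, which has a form of heart and skeletal muscle (Slc25a3-206) and a widespread form (Slc25a3-201) that differ in the third of 8 exons. The muscle form made up 70.7% and 72.4% at E18.5 and 21.6% and 10.9% at P7 and the widespread form 16.9% and 15.8% at E18.5 and 70.8% and 83.7% at P7 (difference 60.9 ± 7.67 percentage points (SE), adjusted p = 0.0232). The exons lie at chr10:91122207-91122331 (125 bases) and chr10:91121922-91122043 (122 bases) on the minus strand of GRCm38 and align with 66.7% identity. They are printed in lower case throughout, since their lengths differ.
Slc25a3-206 exon: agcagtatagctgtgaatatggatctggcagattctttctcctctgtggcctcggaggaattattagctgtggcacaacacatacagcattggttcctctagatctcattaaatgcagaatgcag
Slc25a3-201 exon: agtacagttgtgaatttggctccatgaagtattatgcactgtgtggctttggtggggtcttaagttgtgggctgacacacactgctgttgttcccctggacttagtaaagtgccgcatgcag
Flnc encodes filamin C, a cross-linker of actin at the Z-disc, and fell in level. Its transcript Flnc-201, which keeps exon 31 of 48, made up 23.8% and 22.3% at E18.5 and 87.9% and 92.7% at P7 of the gene (difference 67.2 ± 5.92 percentage points (SE), adjusted p = 0.011), and Flnc-202, which lacks that exon, the larger part of the rest. The exon has 99 bases, at chr6:29452799-29452897 on the plus strand, and is given below in lower case only, since there is no counterpart to compare it with.
Flnc exon 31: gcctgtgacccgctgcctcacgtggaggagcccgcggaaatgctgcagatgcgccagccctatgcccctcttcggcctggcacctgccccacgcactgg

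**Figure D5:**
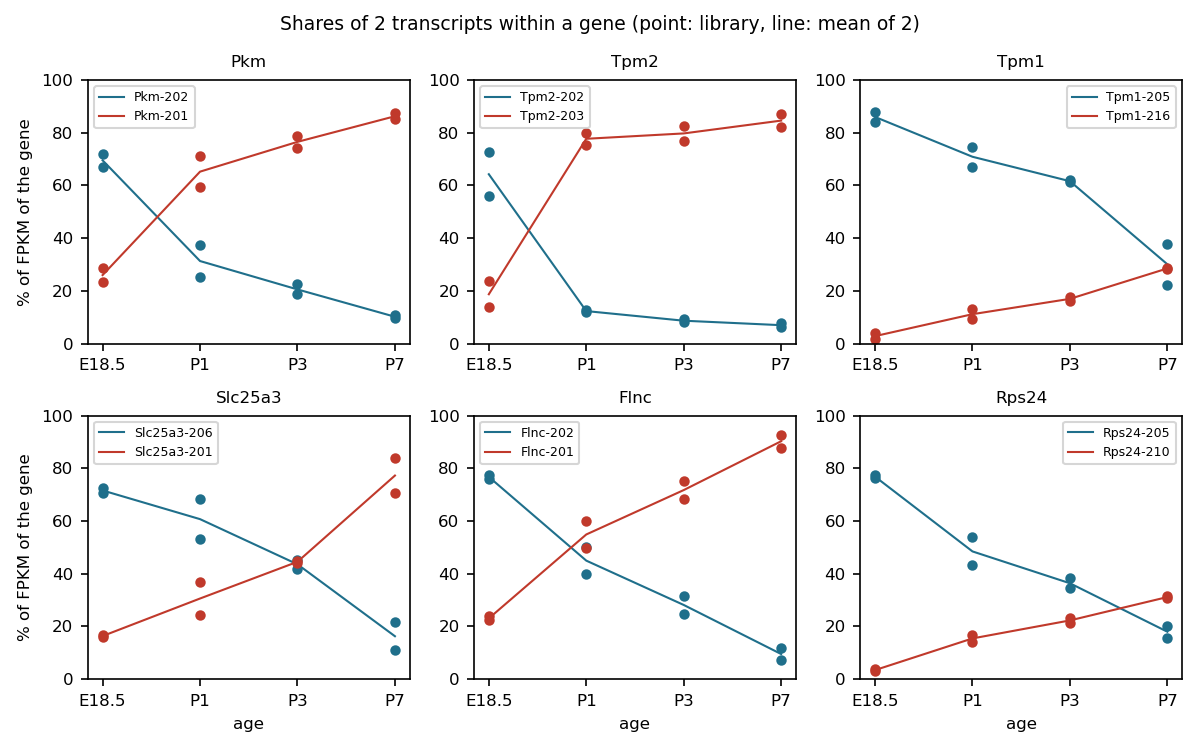
Shares of transcripts within 6 genes by age. Each panel gives the FPKM of 2 transcripts as a percentage of their gene in the 8 mouse RNA libraries, 1 point for each library and a line through the means of 2. The transcript that led at E18.5 is the lower one at P7 in the panels of Pkm, Tpm2, Slc25a3, Flnc and Rps24, and the 2 transcripts of Tpm1 approach each other.

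Other called exchanges included Rps24, a ribosomal protein whose small last exons vary between tissues, where Rps24-205 made up 76.2% and 77.5% at E18.5 and 20.3% and 15.6% at P7 and Rps24-210 3.18% and 3.64% at E18.5 and 30.7% and 31.5% at P7. Fhl2-202 of the LIM protein gene Fhl2 made up 76.1% and 83.5% at E18.5 and 20.3% and 10.5% at P7, Vdac3-202 of the mitochondrial porin gene Vdac3 69.5% and 71.5% at E18.5 and 14.1% and 7.22% at P7, and Pdlim5-201 of the Z-disc gene Pdlim5 23.3% and 16.1% at E18.5 and 63.9% and 76.1% at P7. Slc25a3, Rps24, Fhl2 and Vdac3 were picked from the called transcripts after their values were seen. The 10 genes with the largest called differences were Furin, Rbpj, Actr8, Gpx8, G6pc3, Zfyve21, Coq10a, Flnc, Myh7 and Prss23. Rbpj-203 of Rbpj, the transcription factor of the Notch pathway, made up 89.8% and 90.4% at E18.5 and 5.56% and 5.49% at P7, and Actr8-204 of the chromatin remodelling subunit Actr8 87.2% and 82.2% at E18.5 and 0% and 0.187% at P7. Of the 241 called transcripts, 177 had P1 and P3 means between those of E18.5 and P7, and in 136 these also came in the order of age. For Furin-202 and 7 others the P1 mean lay on the P7 side of the midpoint and the P3 mean on the E18.5 side. For genes whose splicing is known to change in the developing heart, no transcript of Tnnt2, Ldb3, Camk2d, Nexn, Mef2a, Mef2d or Bin1 was called. Tnnt2-207, the main transcript of Tnnt2, made up 64.1% and 68.4% at E18.5 and 51.5% and 56.9% at P7, and Ldb3-203, the main one of Ldb3, 58.6% and 66.5% at E18.5 and 56.04% and 40.2% at P7. Ttn and Mef2c did not reach the level required for the comparison of shares.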

How the data were processed

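RNA-seq was used from 8 mouse RNA libraries labelled as perinatal cardiomyocytes, 2 at each of 4 ages from E18.5 to P7. The authors selected poly-A RNA, prepared libraries with a kit that does not mark strand, sequenced pairs of 150 bases, aligned them to mm10 with HISAT2 2.1.0 and let StringTie 1.3.5 estimate the transcripts of GENCODE vM21. The deposited files list FPKM, TPM and coverage per transcript. Such FPKM values are not counts, so no count model was used. Depth was worked out from coverage, length and FPKM, and the number of libraries, not depth, limits the precision of most values.

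Gene FPKM was the sum over the transcripts of a gene. Groups were taken from the labels. limma 3.58.1 in R 4.3.3 was fitted with a trend to log2(FPKM + 1) of the 8 libraries, with age as the only term, for genes that reached an FPKM of 1 in 2 or more libraries, and the contrast was P7 minus E18.5. Transcript shares were fitted in the same way for genes that reached an FPKM of 5 in each of the 4 libraries and transcripts with a mean share of at least 5%. Both fits were also run on simulated data, with changes set larger than the thresholds. That check does not show how often smaller or noisier changes would be found. Alternatives were another pseudocount, other filters, TPM, size factors, rescaled totals, limma-voom on estimated reads, a replicate block, the 4 libraries alone, and leaving out each library in turn.

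The gene lists and members were chosen with earlier results of these data known. Genes named were those with the largest called rises and falls, the leading called and the most abundant uncalled members of each list, those with the highest levels, those that the study names, and a fixed set for transcript shares. Further genes were named to account for the exceptions of a list, for an isoform pair or for a promoter, and these (Atp2a2, Mki67, Il6, Slc2a1, Ccl2 and Lcn2 among them) were chosen after their values were seen. Promoter windows and exons were read from GRCm38, the assembly that mm10 names. Windows of 250 bases before the start of the most expressed transcript replaced the RefSeq promoter table after the data were seen, because that table held 72.1% of the tested genes. Copies of mitochondrial genes were aligned with blastn 2.17.0. The 20 other samples of the series, of other assays or another species, were not used here. Some genes that the naming rule would give are not reported here.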

Additional observations from a re-analysis of the deposited data

How the results depend on the processing

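The count of called genes was 3870 and stayed within 1.5 times of that under every alternative tried, from 3684 to 4096 when 1 library was left out (the lone library of its age was then assumed to vary like those of the other ages), 2619 with a mean FPKM of at least 5 and 4937 with TPM. The share of called genes that were higher, 55.7%, was 61.4% with a mean FPKM of at least 5, 68.1% with TPM, 45.5% with size factors, 64.9% after rescaling without erythroid and mitochondrially encoded genes, 57.3% after rescaling also without the chromosome 1 copies and AY036118 (added after the data were seen) and 57.4% with limma-voom, and went from 54.8% to 57.1% with 1 library left out. TPM, size factors and rescaling differ by construction in the total they fix, and the cause of the other shifts was not tested. The count of called transcripts, 241, was 144 at a gene FPKM of at least 20, 448 at a difference of at least 10 percentage points, 0 with the 4 libraries alone and 137 to 333 with 1 library left out. The P7 minus E18.5 difference in the share of coverage times length was 5.56 percentage points for protein-coding transcripts and -4.13 for pseudogenes, against 9.33 and -9.45 for FPKM. Libraries of E18.5 and P7 with the same replicate number did not deviate together (r = -0.0886 over 13979 genes), so the number was not taken as a pairing. With it as a replicate block 3875 genes and 97 transcripts were called.

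Of 180 called genes named in the text 166 kept the call under every alternative in which they were tested. The 14 that lost it under at least 1 were Ccl4, Cenpa, Emcn, Eng, Fmod, Fosl1, Il1b, Insr, Mef2d, Mx1, Nppa, Rsad2, Tfeb and Thra. Not every named gene was tested under every alternative. Rescaling left out the erythroid genes, and the added rescaling also the chromosome 1 copies. The filter on mean FPKM left out genes with low levels. No called gene named in the text changed direction (0 of 180). Some that were not called did, with log2 differences near 0. With TPM these were Eln 0.10, Furin 0.21, Hspa8 0.19, Junb 0.26, Tnf 0.13 and Vdac3 0.048. With the first rescaling they were Eln 0.016, Furin 0.13, Hspa8 0.10, Junb 0.17 and Tnf 0.040, and with the added one Junb 0.031. With size factors they were Actr8 -0.048, Col18a1 -0.095, Mki67 -0.13 and Vegfa -0.15, and with limma-voom Col18a1 -0.019, Mmp9 0.039 and Rps24 0.19. With 1 library left out the ranges were Col18a1 -0.21 to 0.38, Cxcl10 -0.81 to 0.25, Cxcl2 -0.025 to 0.54, Eln -0.51 to 0.19, Furin -0.20 to 0.11, Hmox1 -0.45 to 0.92, Hspa8 -0.24 to 0.090, Junb -0.14 to 0.13, Mki67 -0.10 to 0.18, Tnf -0.36 to 0.13 and Vegfa -0.21 to 0.27. Medians of 6 of 55 gene lists changed sign under at least 1 alternative, those of the endothelial, macrophage, Schwann cell and neuron, PPAR regulator, cyclin and insulin-like growth factor lists.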
